A study of Mus musculus with 60 samples.

Results

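The Cited genes encode a small family of transcriptional coactivators. The members were chosen by gene symbol, as every probe set whose platform annotation gives exactly Cited1, Cited2 or Cited4, and they are 3 of the 13190 genes tested. Cited1 entered because of its levels in P19 and P19CL6, and Cited2 because of its level in CL6G26, both already known from these arrays. Those contrasts are therefore described here with no test. The family had 5 probe sets on the MOE430A array and 0 on MOE430B. Of the 5, 4 lay above the floor on enough arrays to be tested, and they covered all 3 genes.

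The cells were undifferentiated mouse embryonal carcinoma cells, which the labels trace to a male C3H embryo. P19 is the parental line, P19CL6 is a substrain of P19, and CL6G26, CL6G36, CL6G45 and CL6G52 are substrains of P19CL6. All 6 strains were untreated, grown in the same serum-containing alpha-MEM medium, and hybridised as 5 biological replicates per strain on each array type, giving 60 arrays in all. The labels give no purpose for the sublines, do not call them single clones, and do not say that replicates were separate cultures, so a p-value here reflects how far these samples scatter, some of which could be technical.

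Cited proteins have no known DNA-binding domain. Their conserved C-terminal region binds the CH1 domain of the histone acetyltransferases CBP and p300, and they are recruited to DNA through partner transcription factors. Cited1, first described in pigmented melanoma cells and later in nephron progenitors, can assist Smad-dependent and estrogen-dependent transcription. Cited2 competes with hypoxia-inducible factor HIF-1alpha for p300, serves as a coactivator of TFAP2 factors, and is needed for heart and adrenal development and for the maintenance of embryonic stem cells. Cited4 is a smaller relative that also binds CBP, p300 and TFAP2 factors.

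Markers of the labelled cell type were detected. Of 8 embryonal carcinoma markers, Pou5f1, Nanog, Sox2, Utf1 and Tdgf1 exceeded the floor on every array of their type, while Fut4 and Zfp42 did so on none. The median deposited signal was 30.2 to 53.4 per MOE430A array and 10.6 to 16.5 per MOE430B array. On each array type 3 of the 30 arrays had a whole-array profile nearer to another strain than to their own. These were P19 replicates 4 and 5, nearest to P19CL6, and CL6G52 replicate 1, nearest to CL6G45. For P19 replicates 4 and 5 Pearson's r with P19CL6 was 0.44 and 0.32 on MOE430A. On MOE430B it was only 0.03 and 0.08. Correlations were low on MOE430B, where an array nearest to its own strain had an r as low as -0.01, so that array type says less. Values are log2 of the quantile-normalized signal. The floor, the 40th percentile of a MOE430A array, was 4.61, and levels of different probe sets are not compared.

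The promoter of each gene whose level varied most is shown so that its bases can be read beside the levels. The sequences are the 250 bases before the RefSeq start on build GRCm38.p6, written 5′ to 3′ on the gene's strand. Capitals mark TATAAA, the core of a TATA box, and ACGTG, the core bound by hypoxia-inducible factors and by many basic helix-loop-helix proteins, on either strand. The Cited1 window, for the outermost of its 3 RefSeq starts, is chrX:102252182-102252431 on the minus strand. The Cited2 window, for its 1 RefSeq start, is chr10:17722978-17723227 on the plus strand.
Cited1: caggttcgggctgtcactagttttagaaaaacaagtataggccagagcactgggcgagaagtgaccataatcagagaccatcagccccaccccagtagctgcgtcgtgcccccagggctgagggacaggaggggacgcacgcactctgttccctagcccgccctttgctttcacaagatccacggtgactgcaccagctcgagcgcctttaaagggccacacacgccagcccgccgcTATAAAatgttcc
Cited2: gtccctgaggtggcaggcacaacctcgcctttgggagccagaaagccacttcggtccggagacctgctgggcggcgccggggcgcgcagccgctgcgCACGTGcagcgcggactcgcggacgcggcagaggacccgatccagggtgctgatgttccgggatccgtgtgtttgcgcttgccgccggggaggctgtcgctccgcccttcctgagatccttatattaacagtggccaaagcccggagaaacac

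TATAAA occurred 1 time in the Cited1 window, beginning at position -13 from the annotated start, and 0 times in the Cited2 window. ACGTG occurred 2 times in the Cited2 window, as both strands of 1 palindrome, and 0 times in the Cited1 window. Over 32851 RefSeq windows of the same length, 12.4% held TATAAA and 16.6% held ACGTG on either strand. The Cited2 window was rich in CG dinucleotides, with 26 against a median of 6, a number that 9.59% of all windows reached, and the Cited1 window had 13, which 31.5% reached. The window of the second Cited1 start had TATAAA 1 time, at position -115, and ACGTG 1 time, with 9 CG dinucleotides. That of the third start had 30 CG dinucleotides and neither motif, and the single Cited4 window had TATAAA at position -22. These matches describe the letters and were not tested as binding sites.

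Cited1 was bright on 27 of the 30 MOE430A arrays and under the floor on the other 3, all of them P19. The P19 replicates 1 to 5 read 2.07, 4.18, 1.67, 10.31 and 10.44 on the only Cited1 probe set. The deposited signals behind them were 3.8, 16, 2.5, 1432 and 1162. P19 thus held both the 3 dim arrays and a pair within the range of the other strains. The P19CL6 arrays read 10.45, 10.44, 10.44, 10.47 and 10.40, a mean of 10.44 ± 0.03 (SD, n = 5). Over the 27 bright arrays the range was 10.27 to 11.19.

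The mean difference of 4.71 on the log2 scale between P19CL6 and P19 averaged these unlike P19 arrays. It was 0.07 without P19 replicates 1, 2 and 3. Without P19 replicates 4 and 5 the remaining P19 arrays were all under the floor, so the difference has only a bound, of at least 5.83. Against the floor, the P19CL6 mean was at least 56.8-fold higher than the 3 dim P19 arrays, and the mean of P19 replicates 4 and 5 at least 54.2-fold higher. On whole-cell RNA, fewer cells with the transcript and less transcript per cell cannot be told apart.

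**Figure D1:**
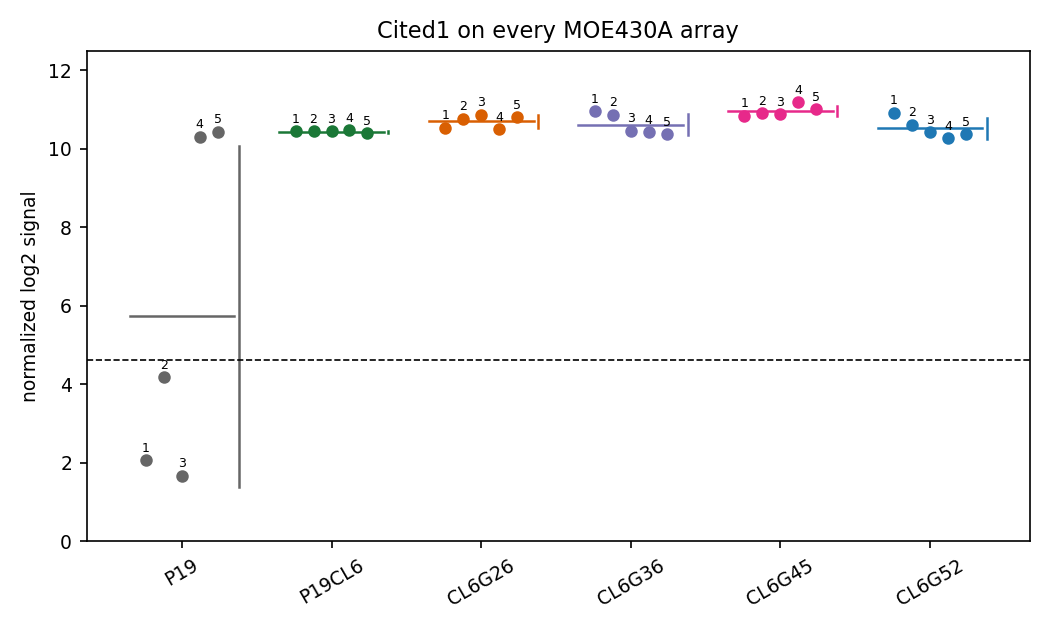
Normalized log2 signal of Cited1 (vertical axis) on each MOE430A array by strain (horizontal axis); small numbers are replicates, horizontal bars strain means, vertical bars 1 SD either side of the mean over 5 arrays, and the dashed line the floor at 4.61. P19 replicates 1, 2 and 3 lie under the floor at 1.67 to 4.18, and the other 27 arrays lie between 10.27 and 11.19.

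Cited1 was chosen with these P19 levels known, and its P19 replicates 1 to 3 have only an upper bound, so its split is a description. The same division of the P19 arrays was seen in other genes. Of the 8913 genes read on MOE430A, 156, or 1.75%, had a gap of at least 1 log2 unit between P19 replicates 1 to 3 and P19 replicates 4 and 5, taken between the closest arrays of each side. In 94 of the 156 the signal was higher in replicates 4 and 5. For Cited2 the gap was 0.20, lower in replicates 4 and 5. Genes called by limma in P19CL6 against P19 numbered 588 with all arrays and 2587 without P19 replicates 4 and 5.

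Other markers moved with this split. The summed signal of the 4 annotated of 5 kidney progenitor markers was 79.8 to 103 on P19 replicates 1 to 3 and 244 to 248 on replicates 4 and 5. Six2, a nephron progenitor factor and the brightest of that list, read 5.93 to 6.04 and then 7.71 to 7.77. Eya1 did not separate the arrays, at 3.47 to 4.43 and then 4.16 to 4.72. Osr1 and Wt1 of that list lay above the floor on no array, so the sum mostly follows Six2. The sums for embryonal carcinoma (8 markers), mesoderm (4 of 5 annotated) and neural cells (5) were 5222 to 5399 against 5692 to 6002, 157 to 196 against 219 to 262, and 288 to 319 against 333 to 349. The sum of 8 extraembryonic endoderm markers was 166 to 195 against 294 to 308. That of 6 trophoblast markers was 441 to 463 against 642 to 729, and that of 6 fibroblast markers 174 to 196 against 97.8 to 140. Such sums weight the brightest genes most. In the endoderm list that was Foxa2, at 6.11 to 6.38 against 7.19 to 7.29. Eomes of the trophoblast list read 8.44 to 8.50 against 8.91 to 9.14. Mixl1 of the mesoderm list read 6.07 to 6.54 against 7.13 to 7.25. Gata3, Gata4 and Hand1 also separated, while Afp, Gata6, Sox17, Cdx2, Mesp1, Kdr and Tbx6 overlapped. Sox7, Ttr, Lama1, Elf5 and Krt7 lay above the floor on no array. In the embryonal carcinoma list Pou5f1, Nanog and Tdgf1 were higher on replicates 4 and 5, and Utf1 overlapped. Sox2 went the other way, at 9.02 to 9.23 against 8.52 to 8.75. So did Dppa5a, near the floor, at 4.87 to 5.46 against 4.59 to 4.73. Melanocyte markers did not separate the arrays, at 139 to 179 against 143 to 155, and 0 of 6 were above the floor on all arrays. The part of these lists in the Cited1 levels was not tested.

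The ratio of 3′ to 5′ Gapdh signal, a sign of RNA integrity, was 0.908 to 0.937 on P19 replicates 1 to 3 and 0.924 to 0.954 on replicates 4 and 5, so the ranges overlapped. Genes beside Cited1 on the X chromosome were also read. Of the 5 protein-coding genes on each side, a set chosen after the values were seen, 6 were tested and 0 had a gap of at least 1 log2 unit within P19. Such a gap was seen in only 1.75% of genes on MOE430A and 1.80% on MOE430B, so 0 of 6 says little about the neighbours. Rps4x, a ribosomal protein gene and the nearest neighbour on one side, read 12.43 to 12.58 over the 5 P19 arrays. Ercc6l, a helicase gene of mitotic chromosomes, read 7.42 to 7.82 there. It was the 1 neighbour called in the 5 comparisons, at -0.48 in CL6G36 and -0.31 in CL6G45 (limma adjusted p = 0.00138 and 0.0429). Of all genes, 13.5% and 13.2% were called there, so 1 of 6 also says little about the neighbours.

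Genes whose signal ran most like Cited1 over the 30 arrays did so through the 3 dim P19 arrays. Pearson's r with Cited1 was 0.98 for Bhlhe40, a hypoxia- and clock-related repressor, 0.98 for H2-Oa, an MHC class II chaperone chain, 0.97 for S1pr3, a sphingosine-1-phosphate receptor, and 0.97 for Coro2a, an actin-binding coronin. Over the 25 arrays without P19 the same r values were 0.29, 0.59, 0.23 and -0.08. The lowest values were -0.93 for Nmt1, an N-myristoyltransferase, and -0.93 for Efhd1, a calcium-binding mitochondrial protein, which became 0.65 and 0.19 without P19. These arrays share strains and normalization, and r is given as a description.

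**Figure D2:**
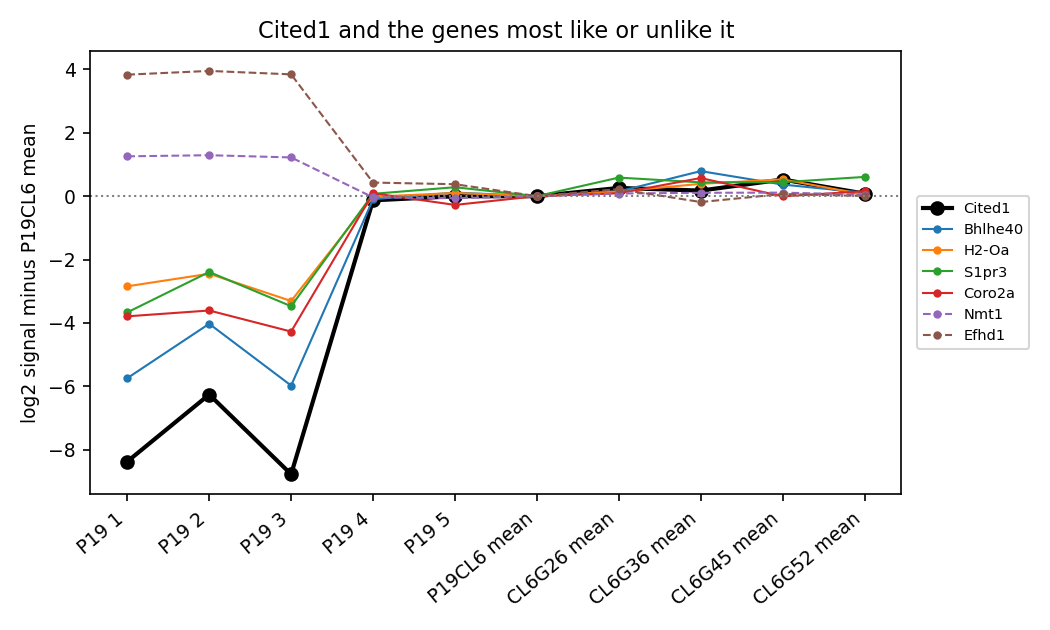
Log2 signal minus the P19CL6 mean of each gene (vertical axis) on the 5 P19 arrays and as the mean of the other strains (horizontal axis) for Cited1, the 4 genes most like it (solid) and the 2 most unlike it (dashed). The separation lies between P19 replicates 3 and 4; for Bhlhe40 the normalized signal was 1.09 to 3.04 on replicates 1 to 3 and 6.97 to 7.18 on replicates 4 and 5.

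Within the P19CL6 lineage Cited1 stayed high, with the highest mean in CL6G45. The CL6G45 arrays read 10.85, 10.91, 10.88, 11.19 and 11.01, all above the 5 P19CL6 arrays. CL6G26 read 10.54, 10.77, 10.87, 10.51 and 10.80, also above all 5. Neither range touched that of P19CL6, which was narrow. CL6G36 read 10.96, 10.87, 10.46, 10.42 and 10.37, and CL6G52 read 10.92, 10.62, 10.42, 10.27 and 10.37, both overlapping P19CL6. Non-overlap with P19CL6 was seen in 4.15% of genes for CL6G26, 12.3% for CL6G36, 13.7% for CL6G45 and 4.89% for CL6G52.

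None of these 4 differences passed the limma fit at an adjusted p under 0.05. They were 0.26 in CL6G26 (adjusted p = 0.959), 0.18 in CL6G36 (0.930), 0.53 in CL6G45 (0.784) and 0.08 in CL6G52 (0.980). The SE was 1.0 for each, because the fit shared 1 spread over all strains and P19 set it. With P19 replicates 1, 2 and 3 left out, the CL6G45 difference of 0.53 had an SE of 0.11 and a limma adjusted p of 0.000953, and with CL6G45 and P19CL6 alone the limma adjusted p was 2.9e-05. It did not pass under the other 20 of 22 alternatives, with a limma adjusted p of 0.142 without P19 replicates 4 and 5 (SE 0.25) and 0.828 with the deposited scaling. The CL6G26 difference did not pass with the 2 strains alone (limma adjusted p = 0.0609).

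Cited2 was lower in the 4 sublines than in P19CL6. On the brighter of its 2 probe sets, above the floor on all 30 arrays, the P19CL6 arrays read 6.61, 6.56, 7.43, 7.29 and 7.67. The P19 arrays were higher in the mean, at 8.38, 8.05, 8.31, 7.66 and 7.84. Only P19CL6 replicate 5 reached into the P19 range. In both strains the arrays were uneven, with P19CL6 replicates 1 and 2 under the other 3 and P19 replicates 4 and 5 under the other 3.

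All 20 subline arrays were under the lowest P19CL6 array. CL6G26 read 5.85, 5.24, 4.90, 5.54 and 5.47. CL6G45, the lowest in the mean, read 5.28, 5.35, 5.23, 5.39 and 5.11. CL6G36 read 5.84, 5.67, 5.90, 5.57 and 6.22, and CL6G52 read 5.53, 5.87, 5.75, 5.82 and 5.77. No subline overlapped P19CL6, whose lowest array was at 6.56. Such non-overlap was seen in 12.3% of all genes for CL6G36, 13.7% for CL6G45 and 4.89% for CL6G52. For CL6G26, where the share was 4.15%, the low level chose the gene, so nothing is read from its non-overlap.

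The Cited2 difference from P19CL6 was -1.71 in CL6G26, a 3.27-fold lower mean, given with no test. In CL6G36 it was -1.27 ± 0.18 (SE), 2.41-fold lower (limma adjusted p = 7.70e-06). In CL6G45 it was -1.84 ± 0.18, 3.57-fold lower (limma adjusted p = 2.81e-08), and in CL6G52 -1.36 ± 0.18, 2.57-fold lower (limma adjusted p = 1.14e-05). All 5 arrays of each subline showed the direction. The same 5 P19CL6 arrays served in all 4 comparisons, so the differences are not independent of one another or of the CL6G26 contrast that chose the gene. Cited2 was 1 of the 3 family genes called in CL6G36, CL6G45 and CL6G52, where 13.5%, 13.2% and 3.18% of all genes were called. In CL6G26, where the share was 1.24%, nothing is read from the call. Cited1 and Cited4 passed in none of the 4.

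Summed marker signals also differed between P19CL6 and the sublines, and their part in the Cited2 levels was not tested. Extraembryonic endoderm sums were 214 to 281 in P19CL6, 138 to 160 in CL6G36, 127 to 188 in CL6G45 and 122 to 151 in CL6G52. Trophoblast sums were 559 to 783, 266 to 387, 281 to 388 and 245 to 377 in the same order, mesoderm sums 174 to 279, 78 to 109, 99.4 to 128 and 103 to 168, and kidney progenitor sums 210 to 272, 131 to 181, 150 to 193 and 126 to 183. None of these overlapped P19CL6. Embryonal carcinoma sums went the other way, at 5686 to 6157 in P19CL6, 6391 to 6798 in CL6G36 and 6383 to 6578 in CL6G45, with no overlap. In CL6G52 and CL6G26 they overlapped P19CL6, and neural, melanocyte and fibroblast sums overlapped it in every subline. Members of a list could differ. In the embryonal carcinoma list mean Utf1 was 10.51 in P19CL6, 11.06 in CL6G36 and 11.19 in CL6G45. Mean Pou5f1 and Sox2 were also higher in both sublines. Mean Nanog was lower, at 8.76, 7.66 and 7.74 in the same order, and so was mean Tdgf1, at 9.67, 9.30 and 9.32. Mean Eomes was 9.02 in P19CL6 and 7.69 in CL6G36, while mean Hand1 was 5.48 and 5.66. In CL6G26 endoderm sums were 231 to 279, trophoblast 494 to 566 and mesoderm 166 to 213, all overlapping P19CL6. Kidney progenitor sums in CL6G26 were 193 to 208, under those of P19CL6 with no overlap. The Gapdh 3′ to 5′ ratio of every subline overlapped that of P19CL6.

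**Figure D3:**
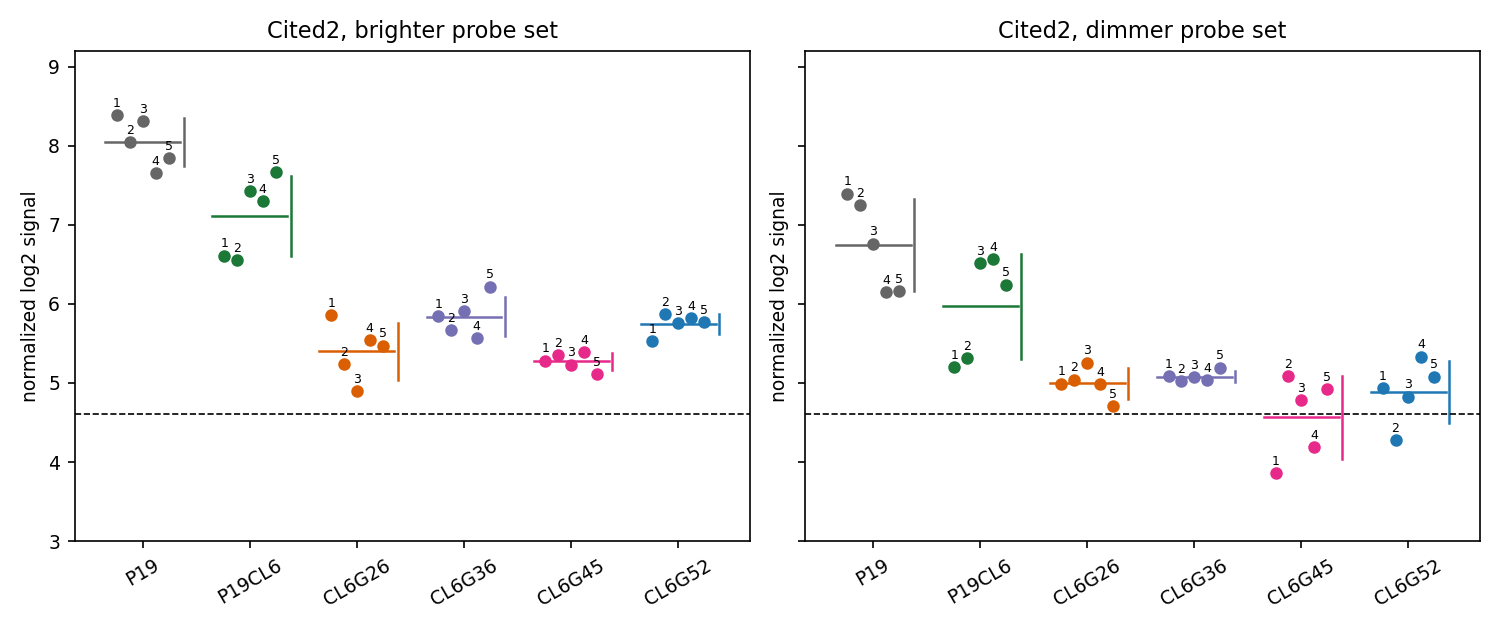
Normalized log2 signal of Cited2 on each MOE430A array by strain, on its brighter (left) and dimmer (right) probe set; small numbers are replicates, horizontal bars strain means, vertical bars 1 SD either side of the mean over 5 arrays, and the dashed line the floor. On the left every subline array lies under the lowest P19CL6 array at 6.56, and on both sides P19CL6 replicates 1 and 2 lie under replicates 3 to 5.

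The second Cited2 probe set was dimmer and above the floor on 27 arrays. It read 7.39, 7.25, 6.76, 6.15 and 6.16 in P19, and 5.20, 5.32, 6.51, 6.56 and 6.24 in P19CL6. The sublines ranged from 4.70 to 5.26 in CL6G26, 5.02 to 5.19 in CL6G36, 3.86 to 5.09 in CL6G45 and 4.28 to 5.33 in CL6G52. On this probe set too the means of all 4 sublines were under that of P19CL6, but CL6G26 and CL6G52 overlapped its replicates 1 and 2. The difference from P19CL6 was -0.89 in CL6G36 (limma adjusted p = 0.0199), -1.40 in CL6G45 (0.000427), -1.08 in CL6G52 (0.0174) and, with no test, -0.97 in CL6G26. Both probe sets put P19 highest, P19CL6 next and CL6G45 lowest.

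Between P19CL6 and P19, Cited2 on the brighter probe set differed by -0.94 ± 0.18 (SE), lower in P19CL6, with a limma adjusted p of 0.0122. The percentage of genes called was 4.46, and arrays of these strains did not overlap in 2.24% of genes, which holds for 0 of the 4 tested family probe sets. The difference did not pass without P19 replicate 1, 2 or 3, with limma adjusted p of 0.0669, 0.0616 and 0.0688. The Gapdh 3′ to 5′ ratio was 0.908 to 0.954 in P19 and 0.835 to 0.887 in P19CL6, with no overlap, and its part was not tested. The Cited2 difference was -0.58 without P19CL6 replicates 1 and 2 (limma adjusted p = 0.0896) and -0.64 without P19 replicates 1, 2 and 3 (1). On the dimmer probe set it was -0.78 (limma adjusted p = 0.0808).

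P19CL6 replicates 1 and 2 stood at 6.56 to 6.61 and replicates 3 to 5 at 7.29 to 7.67 on the brighter probe set, and at 5.20 to 5.32 and 6.24 to 6.56 on the dimmer one. The 2 probe sets thus separated the same arrays. The Gapdh 3′ to 5′ ratio was 0.879 to 0.882 on replicates 1 and 2 and 0.835 to 0.887 on replicates 3 to 5, and its part was not tested.

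Among the 4 sublines, Cited2 means ran in the order CL6G36 (5.84 ± 0.25, SD), CL6G52 (5.75 ± 0.13), CL6G26 (5.40 ± 0.36) and CL6G45 (5.27 ± 0.11), n = 5 each. Because CL6G26 chose the gene, pairs with it are not tested. Of the other 3 pairs none passed for Cited2, with limma adjusted p of 0.0786 for CL6G45 against CL6G36, 0.794 for CL6G52 against CL6G36 and 0.0804 for CL6G52 against CL6G45. The share of all genes passing in these pairs was 2.99%, 13.1% and 11.0%. Without CL6G52 replicate 1, whose profile was nearest to CL6G45, the limma adjusted p for Cited2 was 0.0692, 0.920 and 0.0515 in the same order.

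Genes most like Cited2 kept their likeness without P19. Pearson's r over 30 arrays was 0.90 for Id1, a helix-loop-helix inhibitor induced by BMP signalling, 0.90 for Peg3, an imprinted zinc finger gene, 0.90 for Gnai1, a G protein subunit, and 0.90 for Laptm4b, a lysosomal membrane protein. Over the 25 arrays without P19 they were 0.76, 0.81, 0.81 and 0.78. These 25 arrays are among the 30 by which the genes were picked, so the second r is no separate test and only describes. Id1, for example, had a mean of 7.88 in P19, 6.89 in P19CL6 and 5.54 to 6.25 in the sublines. The most opposed were Scamp1, a vesicle membrane protein, at -0.91 and Ugdh, a sugar nucleotide dehydrogenase, at -0.86, with -0.82 and -0.73 without P19. Of the 10 protein-coding neighbours of Cited2 on chromosome 10, 6 were tested and 0 passed in any of the 5 comparisons, where 1.24% to 13.5% of all genes did.

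Cited4 was near or under the floor throughout. Its brighter probe set was above it on 6 of 30 arrays, with P19 at 3.61, 4.56, 3.92, 3.01 and 4.46, and P19CL6 at 4.08, 4.28, 4.30, 4.63 and 5.06. The subline arrays ranged from 3.73 to 4.96. All strains overlapped P19CL6. The differences were 0.56 in P19CL6 against P19 (limma adjusted p = 0.227) and, against P19CL6, -0.21 in CL6G26 (0.846), -0.27 in CL6G36 (0.565), 0.04 in CL6G45 (0.943) and -0.12 in CL6G52 (0.875). The other Cited4 probe set was above the floor on 0 of 30 arrays, at 1.24 to 4.30, and was not tested. The SE of these differences was 0.28. Its most like genes reached an r of 0.61 at most, for the transporter gene Slc7a4.

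**Figure D4:**
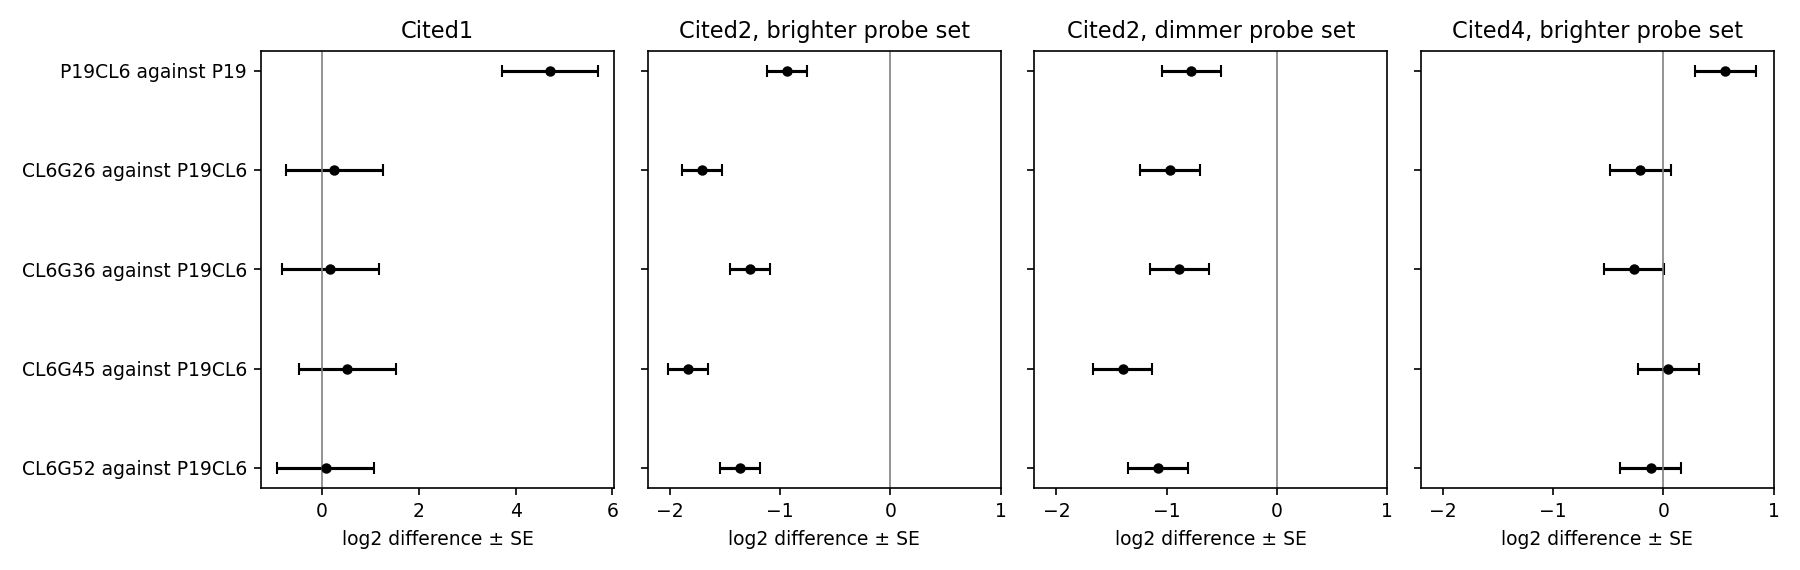
Difference of mean log2 signal (horizontal axis) with the SE of the fit over all 30 arrays for the 4 tested Cited probe sets in the 5 comparisons (vertical axis); the Cited1 panel has its own scale. Cited2 lies left of 0 in all 5 comparisons on both probe sets, while the SE of 1.0 for Cited1 spans 0 in all 4 subline comparisons.

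The partners and targets of the family were read from 7 gene lists. Of their 55 tested genes, 12 were called in P19CL6 against P19, 2 in CL6G26, 14 in CL6G36, 19 in CL6G45 and 3 in CL6G52. These are 21.8%, 3.64%, 25.5%, 34.5% and 5.45%, against 4.46%, 1.24%, 13.5%, 13.2% and 3.18% of all genes, in lists chosen with earlier results known. The 38 calls in the sublines included 24 that held in all 10 fits which each left out 1 replicate of the strains compared. With the deposited scaling, under which limma called fewer genes in every comparison, 11 of the 38 passed, all of them among the 24. The calls in P19CL6 against P19 were lost without P19 replicate 1, 2 or 3. Limma then called 0 of all genes at an adjusted p under 0.05, with 1947, 1992 and 1918 at an unadjusted p under 0.05.

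Among 9 genes for CBP, p300 and partner coactivators, all 9 were tested and 0 passed in P19CL6 against P19, CL6G26 or CL6G52. In CL6G36 2 rose and 1 fell. Ncoa1, a nuclear receptor coactivator, rose by 0.79 (limma adjusted p = 0.000115) and Kat2b, the acetyltransferase PCAF, by 0.57 (0.000496). Crebbp, which encodes CBP, fell by 0.35 (limma adjusted p = 0.0132), a call lost without P19CL6 replicate 4. Ncoa1 was the 1 that passed in CL6G45, at 0.52 (limma adjusted p = 0.00815), and its calls in both sublines held with the deposited scaling, unlike those of Kat2b (0.0994) and Crebbp (0.337). Ep300, which encodes p300, differed by -0.18 to 0.18 and passed nowhere.

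Cited2 is known as an HIF target and as a brake on HIF-1alpha. Of 10 HIF subunits and regulators, 9 were tested. In P19CL6 against P19, 2 rose, the oxygen-sensing prolyl hydroxylase genes Egln1 by 1.06 and Egln3 by 0.58 (both limma adjusted p = 0.0122). Both calls were lost without P19 replicate 1, 2 or 3. In CL6G36 3 rose and 0 fell, in CL6G45 3 rose and 1 fell, in CL6G26 1 fell, and in CL6G52 0 of the 9 passed. Arnt, the dimer partner of HIF-1alpha, rose by 0.81 in CL6G36 and 0.50 in CL6G45 (limma adjusted p = 5.65e-05 and 0.00871). Egln3 rose by 0.86 and 0.61 in the same order (limma adjusted p = 8.07e-06 and 0.000802). In CL6G36 and CL6G45 both genes passed in all fits without 1 replicate and with the deposited scaling. Hif1a, the oxygen-regulated subunit, had differences of 0.27 and 0.28 (limma adjusted p = 0.0281 and 0.0207) that were lost in 6 and 3 of the 10 fits without 1 replicate. Hif3a, a family member that can oppose HIF-1alpha, fell by 0.79 in CL6G26 (limma adjusted p = 0.00118), though not with the deposited scaling (0.336).

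All 15 listed HIF target genes were tested. In P19CL6 against P19, 7 rose and 0 fell, with a median difference of 0.59 against 0.01 over all genes. Among them Ndrg1, a stress-induced gene, rose by 1.42 and Bnip3, a mitophagy receptor gene, by 0.73 (limma adjusted p = 0.0122 and 0.0184). None of the 15 passed without P19 replicate 1, 2 or 3, where the median was 0.52, 0.38 and 0.46, and the median was -0.03 with all 3 of these left out. With the 2 strains alone and without P19CL6 replicates 1 and 2, 0 passed, at medians of 0.59 and 0.57. Without P19 replicates 4 and 5, 11 rose. Without P19CL6 replicate 1, 4 rose, and with the deposited scaling 2 rose.

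In the sublines 4 HIF targets rose in CL6G36 and 4 in CL6G45, 0 fell in either, and 0 passed in CL6G26 or CL6G52. All genes passed at 13.5%, 13.2%, 1.24% and 3.18% in that order. The median differences were 0.46, 0.20, -0.04 and -0.08 in that order, against -0.01 to 0.01 over all genes. P4ha2, a collagen prolyl hydroxylase gene, rose by 0.98 in CL6G36 (limma adjusted p = 0.001), and Bnip3 rose by 0.73 in CL6G45 (0.00491). Both held in all 10 fits without 1 replicate and with the deposited scaling. Vegfa, the angiogenic growth factor gene, rose by 0.46 in CL6G36 and 0.42 in CL6G45 (limma adjusted p = 0.00619 and 0.0133), though not with the deposited scaling (0.199 and 0.108). Leaving out CL6G36 replicate 1 or 3, or P19CL6 replicate 1 or 3, left 2 in CL6G36, and leaving out any 1 CL6G45 replicate, or P19CL6 replicate 3, 4 or 5, left 2 in CL6G45. With the 2 strains of a comparison alone, 10 rose and 1 fell in CL6G36 and 7 rose in CL6G45. Without CL6G52 replicate 1, 2 fell in CL6G52. Cited2 was lower in all 4 sublines, and the difference between sublines was not tested for this list.

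**Figure D5:**
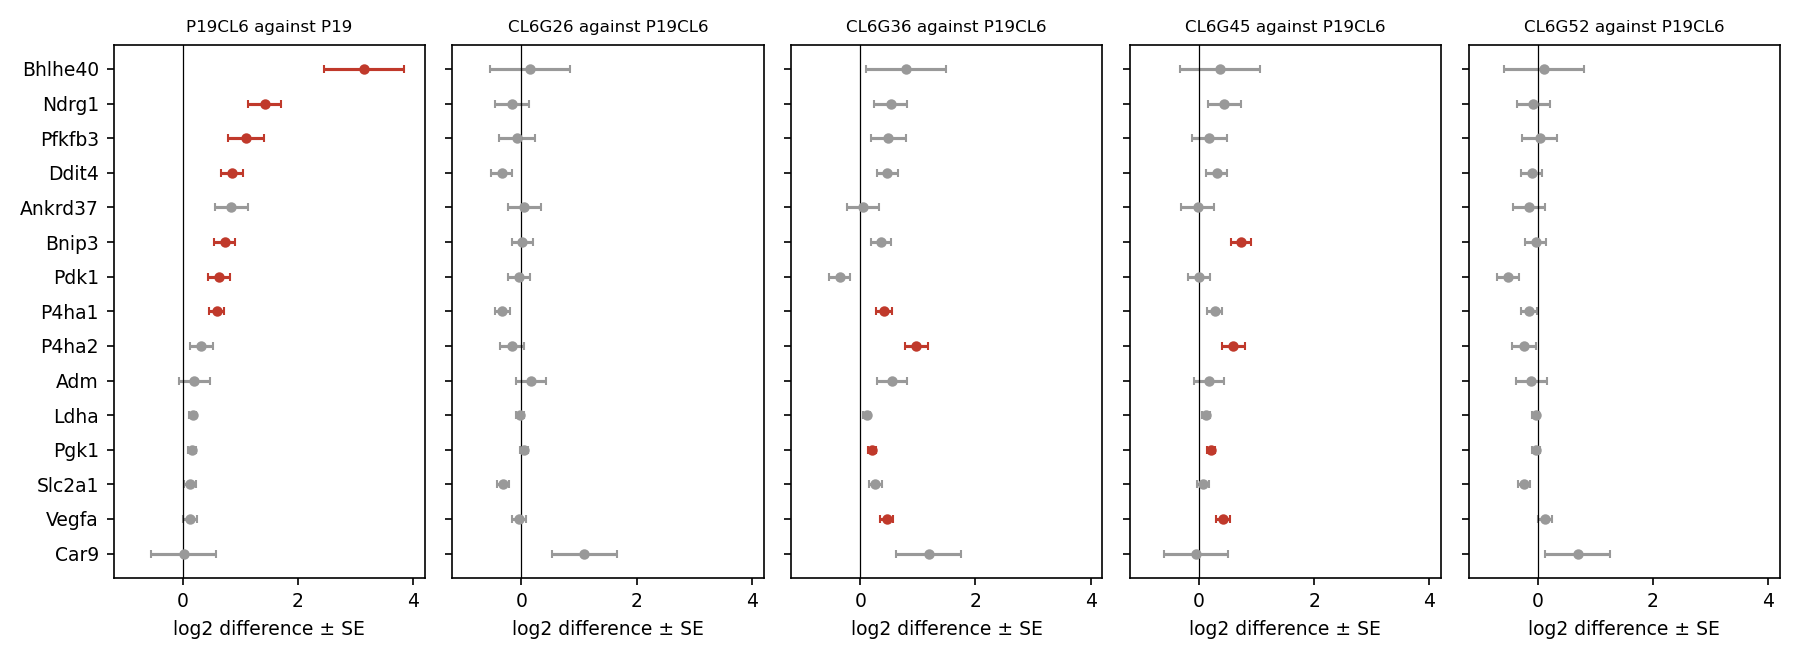
Difference of mean log2 signal with the SE of the fit (horizontal axis) for 15 listed HIF target genes (vertical axis) in the 5 comparisons (panels); red points have a limma adjusted p under 0.05 over all probe sets tested, grey points do not. Red points number 7, 0, 4, 4 and 0 from left to right and all lie right of 0.

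Of 11 Smad and Nodal pathway genes, 8 were tested. In P19CL6 against P19 1 passed, and in CL6G26 0 did. Nodal, a TGF-beta family ligand gene of pluripotent cells, fell by 0.91 in CL6G36, 0.75 in CL6G45 and 0.62 in CL6G52 (limma adjusted p = 1.28e-06, 3.55e-05 and 0.00136) and differed by 0.07 in CL6G26 (0.893). These 3 calls held in all 10 fits without 1 replicate, and with the deposited scaling those in CL6G36 and CL6G45 did. Lefty1, a Nodal inhibitor gene, rose by 0.97 in P19CL6 against P19 (limma adjusted p = 0.0122), a call lost without P19 replicate 1, 2 or 3. In CL6G45 3 rose. These were Lefty1 by 0.59 (limma adjusted p = 0.0412), Smad4, the common Smad, by 0.24 (0.0148) and Skil, a Smad corepressor, by 0.37 (0.0279). The Smad4 call was lost without P19CL6 replicate 3 and the Skil call in 4 of 10 fits without 1 replicate. The Lefty1 call in CL6G45 was lost in 9 of 10 such fits. In CL6G52 1 gene rose and Nodal was the 1 that fell.

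Of 7 TFAP2 factors and corepressors, 4 were tested. Kctd1, a TFAP2 corepressor gene, was the 1 that passed, up by 0.60 in P19CL6 against P19 and down in CL6G45 at -0.53 (limma adjusted p = 0.0243 and 0.0189). Of 10 further factors that bind Cited proteins, 3 were tested. Myc rose by 0.60 in P19CL6 against P19 and fell by 0.72 in CL6G45 (limma adjusted p = 0.0156 and 0.000568), and Nr5a1, a steroidogenic factor, fell by 0.42 in CL6G45 (0.0131). The CL6G45 calls held in all 10 fits without 1 replicate but not with the deposited scaling. Those of Kctd1 and Myc in P19CL6 against P19 were lost without P19 replicate 1, 2 or 3.

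Of 10 genes reported to act upstream of Cited2, 7 were tested and 0 passed in P19CL6 against P19. Egr1, an immediate-early zinc finger factor, fell by 1.67 in CL6G36, 1.05 in CL6G45 and 1.02 in CL6G52 (limma adjusted p = 1.50e-05, 0.00381 and 0.016). These calls held in all 10 fits without 1 replicate, and with the deposited scaling the 1 in CL6G36 did. In CL6G26 the difference was -0.96 (limma adjusted p = 0.0411), lost in 7 of 10 fits without 1 replicate. Foxo3, a forkhead factor, rose by 0.63 in CL6G36 and 0.49 in CL6G45 (limma adjusted p = 0.000659 and 0.00739), and Foxo1 fell by 0.42 in CL6G36 (0.000385), none of them with the deposited scaling. Stat5b differed by 0.40 in CL6G45 (limma adjusted p = 0.0264), lost in 5 of 10 fits without 1 replicate.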

How the data were processed

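RNA was measured on 60 Affymetrix arrays. The values the authors deposited are linear intensity per probe set, made with GCOS per the submitters' processing notes; the version and scaling target are not given in the sources used here. Signals of each array type were quantile normalized, with values under 1 raised to 1 before the log2. Probe sets above the floor (the 40th percentile on MOE430A, the 60th on MOE430B) on at least 5 of 30 arrays were tested, 15086 and 12160 in number. A gene was read from its brightest tested probe set, on MOE430A where both types had one. The number of arrays limits the precision.

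Tests used limma 3.58.1 in R 4.3.3, with 1 mean per strain, a shared spread over 30 arrays, eBayes with a trend and two-sided p adjusted by Benjamini-Hochberg over the probe sets of an array type; a gene passed at an adjusted p under 0.05. The code was tested on simulated data. The members and the gene lists were chosen with earlier results of these data known. From each list up to 4 genes that passed, by smallest adjusted p in any of the 5 comparisons, were named, with the 4 genes most and 2 least like each member by Pearson's r. Alternatives were the deposited scaling, the floor, the log offset, the filter, the 2 strains alone, a replicate block, no trend, and leaving out replicates. Leaving out P19CL6 replicates 1 and 2 together and the dimmer Cited2 probe set were chosen after seeing the data. Protein sequences were not used here.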

Additional observations from a re-analysis of the deposited data

Results flagged for a closer look

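The dimmer Cited4 probe set read 1.34 in CL6G26 replicate 1 and 1.24 in CL6G52 replicate 4, each far under the other 4 arrays of its strain. Both signals lie under the floor, where values have no order. Of 30 strain and probe set groups examined, 2 held such an array, and chance gives about 1 in 20.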

How the results depend on the processing

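Cited2 in CL6G36, CL6G45 and CL6G52 against P19CL6 passed under all 23, 23 and 22 alternatives run. In P19CL6 against P19 it passed under 16 of 23. There it was -0.94 with the 2 strains alone (limma adjusted p = 0.195), -0.64 without P19 replicates 1, 2 and 3, -0.58 without P19CL6 replicates 1 and 2, and -0.78 on the other probe set, which gave -0.97 in CL6G26. Leaving out single replicates gave -1.08 to -0.80. Cited1 in P19CL6 against P19 was 7.80 without P19 replicates 4 and 5, a value set by signals under the floor whose bound is 5.83, and 0.067 without replicates 1, 2 and 3. Cited1 in CL6G45 passed at 0.53 with the 2 strains alone and at 0.53 without P19 replicates 1, 2 and 3. In CL6G52 it turned to -0.021 without CL6G52 replicate 1, in a range of -0.021 to 0.14 over single replicates.

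Cited4 in CL6G45 turned to -0.025 with signals raised to the floor and -0.15 without P19CL6 replicates 1 and 2, with -0.069 to 0.19 over single replicates. In CL6G52 it turned to 0.019 with the deposited scaling, with -0.21 to 0.040 over single replicates. None of these Cited4 values passed, and the cause was not tested.

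The count of genes that passed limma in P19CL6 against P19, 588, was 0 with the 2 strains alone (2135 at an unadjusted p under 0.05), 48 with the deposited scaling, 374 without a trend, 0 without P19 replicates 1, 2 and 3 (442 unadjusted), 2587 without P19 replicates 4 and 5, and 10 without P19CL6 replicates 1 and 2. Over single replicates it ran from 0 to 1502. With the deposited scaling the counts were 34 in CL6G26 (164), 329 in CL6G36 (1786), 385 in CL6G45 (1745) and 171 in CL6G52 (419). In CL6G26 it was 263 without P19 replicates 1, 2 and 3 and 266 without P19 replicates 4 and 5. In CL6G52 it was 252 with the 2 strains alone and 266 to 643 over single replicates, the highest without CL6G52 replicate 1.

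With the replicate number as a block, Cited2 in P19CL6 against P19 was -0.94 (limma adjusted p = 0.0148) and 534 genes passed. Same-numbered arrays did not deviate together, with a mean r per strain pair of -0.02 to 0.02 on MOE430A and -0.02 to 0.03 on MOE430B, and 0 of 15 strain pairs had all 5 values over 0.1. Signals near the floor limit Cited4.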
